A study of Mus musculus with 44 samples.

Results

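The transcriptional response to KLA (Kdo2 lipid A, a TLR4 agonist that stands in for bacterial lipopolysaccharide) was measured in 3 separate sets of control bone marrow-derived macrophages (BMDMs). A set was kept where its KLA and vehicle libraries shared a table and a date, which left 12 RNA-seq libraries of the 44 in the series, or 6 groups of 2 libraries. The series as a whole asked how the corepressor NCoR and the deacetylase HDAC3 take part in macrophage activation, and these 12 libraries are the controls of 3 of its perturbations. Each set was tested against its own vehicle, and the 3 responses were then compared gene by gene. The genes reported are those that moved the same way in all 3 sets and those whose response differed between sets.

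The RGFP966 set consisted of the groups Veh and KLA, wild-type C57Bl6 BMDMs that share a table with cells given the HDAC3 inhibitor RGFP966; neither group received the inhibitor. The Pgc1b flox set consisted of Pgc1b_flox_Veh and Pgc1b_flox_KLA, BMDMs of C57Bl6 mice with loxP sites in both copies of Ppargc1b but without the LysM-Cre transgene. By the study's methods such mice served as the wild type for those with Cre. The DMSO set consisted of DMSO_Veh and DMSO_KLA, wild-type C57Bl6 BMDMs that received DMSO, a common solvent of small molecules, and that share a table with cells given a TBK1 inhibitor. DMSO stands in the titles of these 4 libraries and not in their treatment labels. Treatment lasted 6 h in all 6 groups, and by the study's methods the mice were 8 to 12 weeks old and the cells were kept in low serum before the ligand was added. The DMSO set carried a date 106 days after that of the RGFP966 set, and the Pgc1b flox set a date 192 days after it. The Pgc1b flox set differs from the others in date, genotype and the sex of the cells (by their sex-linked genes) together, and the parts of these in a difference cannot be told apart. The RGFP966 and DMSO sets are both wild type and both have the female pattern, and differ by label in date and in the DMSO given. The labels do not state whether the 2 libraries of a group came from separate mice or cultures. The p-values measure only the spread between libraries of the same group. Within a table that spread also drew on groups outside the comparison, among them RGFP966_KLA, whose 2 libraries carry different dates. An exact permutation test of 2 libraries against 2 cannot give a 2-sided p below 0.333, and every test rests on a spread estimated across genes and groups.

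TLR4 is the macrophage receptor for lipopolysaccharide. Bound by its ligand, it signals through the adaptor MyD88 to NFκB and MAP kinases, which switch on cytokines, chemokines and feedback inhibitors, and through the adaptor TRIF to the kinase TBK1 and the factor IRF3, which switch on interferon β. Interferon β leaves the cell, binds its receptor and, through factors that include STAT2 and IRF9, activates the interferon-stimulated genes that block virus replication. Genes of the resting state and of cell division are commonly lowered in the same cells.

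Promoter sequences of 5 genes are given because these genes carry the results: 2 induced cytokine genes, 2 interferon-stimulated genes and a cholesterol synthesis gene whose response differed between sets. They are RefSeq sequences of the assembly GRCm38.p6, 5′ to 3′ on the strand of the gene, and end at the base before the annotated start. Capitals mark matches, on either strand, to GGGANNNNCC (a κB-like motif, bound by NFκB), GAAANNGAAA (an ISRE-like motif, of the kind bound by STAT and IRF factors) or TCACNCCAC (a sterol-like motif, of the kind bound by SREBP2). The windows are chr5:92348890-92349109 (minus strand) for Cxcl10, chr5:30013014-30013113 (plus) for Il6, chr19:34640739-34640888 (plus) for Ifit1, chr12:26456453-26456602 (minus) for Rsad2 and chr13:119690201-119690350 (plus) for Hmgcs1.
Cxcl10: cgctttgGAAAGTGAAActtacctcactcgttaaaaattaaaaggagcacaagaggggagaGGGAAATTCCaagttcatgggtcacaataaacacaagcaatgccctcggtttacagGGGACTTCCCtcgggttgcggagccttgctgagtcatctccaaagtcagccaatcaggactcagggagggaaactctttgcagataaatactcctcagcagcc
Il6: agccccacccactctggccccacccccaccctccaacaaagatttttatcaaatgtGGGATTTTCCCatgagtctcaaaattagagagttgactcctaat
Ifit1: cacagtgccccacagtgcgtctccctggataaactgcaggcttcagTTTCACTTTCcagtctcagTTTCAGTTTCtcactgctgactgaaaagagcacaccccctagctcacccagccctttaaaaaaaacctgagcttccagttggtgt
Rsad2: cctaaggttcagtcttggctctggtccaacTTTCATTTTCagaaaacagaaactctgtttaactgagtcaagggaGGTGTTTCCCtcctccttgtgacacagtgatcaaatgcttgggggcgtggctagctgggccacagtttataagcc
Hmgcs1: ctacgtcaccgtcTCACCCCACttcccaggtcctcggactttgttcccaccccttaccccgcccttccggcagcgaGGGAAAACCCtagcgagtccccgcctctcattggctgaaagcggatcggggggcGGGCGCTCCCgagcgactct
Cxcl10, which encodes a chemokine for activated T cells, held an ISRE-like match 213 to 204 bases before its start and κB-like matches at 159 to 150 and 103 to 94. Il6 held a pair of κB-like matches that overlap by all but 1 base, at 44 to 35 and 43 to 34. Ifit1, a binder of viral RNA, held ISRE-like matches at 104 to 95 and 85 to 76. Rsad2, which encodes the antiviral enzyme viperin, held an ISRE-like match at 120 to 111 and a κB-like match at 75 to 66. Hmgcs1, an early enzyme of cholesterol synthesis, held a sterol-like match at 137 to 129 and κB-like matches at 74 to 65 and 20 to 11. Over the 250 bases before the start, the ISRE-like motif was found in 3.53% of the 9246 tested genes with a RefSeq promoter and in 7.05% of the 1830 genes induced in all 3 sets. The κB-like motif is short and common, in 26.2% of all tested promoters, 28.4% of those induced in all 3 sets and 27.7% of those lowered. It was present in 8 of 17 cytokine, 6 of 13 chemokine and 6 of 13 cholesterol synthesis promoters, and in 6 of 23 of interferon-stimulated genes. Of 23 interferon-stimulated genes with a promoter, 12 (52.2%) held the ISRE-like motif. The sterol-like motif was found in 1.24% of all tested promoters and in 1 of 13 promoters of cholesterol synthesis genes. A match describes letters and does not show a bound site.

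The libraries held between 9955724 and 15110332 counts in genes. The 8 macrophage marker genes, among them Adgre1, Csf1r and Cd68, summed to between 12510 and 17290 CPM (the count of a gene scaled to a fixed library total) in every library. Defining markers of NK cells (Gzma), neutrophils (Ly6g), mast cells (Fcer1a) and erythroid cells (Hbb-bs, Hba-a1) had no count in any library, and the summed markers of NK, mast and B cells stayed at or below 2.25 CPM. Over the 12 libraries the summed neutrophil markers lay between 1.45 and 10.6 CPM, those of T cells between 1.67 and 13.4 and those of dendritic cells between 0.063 and 6.47. The erythroid or megakaryocyte list, in which a single gene, Pf4, passed 1 CPM, summed to between 18.9 and 111.5 CPM and was highest in the Pgc1b flox set. The 3 endothelial markers summed on average to 8.34 CPM in Veh and 154.9 in KLA, to 8.69 and 98.1 in the Pgc1b flox set and to 8.17 and 121.4 in the DMSO set, with KLA nearly all of it Kdr (149.3 CPM in the KLA group), while Cdh5 had a group mean of at most 1.11. The part of these marker sums in the results was not tested. The 5 fibroblast or stromal markers summed to 51.9 CPM on average in DMSO_Veh and 45.5 in DMSO_KLA, against 0.108 to 2.54 in the groups of the other sets. Xist had 7179 to 21178 counts in the libraries of the RGFP966 and DMSO sets and at most 1 in those of the Pgc1b flox set, where 4 Y-linked genes summed to 1570 to 2719 counts. The Pgc1b flox set thus had the pattern of male cells and the other sets that of female cells. Levels of genes whose copies or pseudogenes share reads, such as Gapdh, Pgk1, Pgam1, Cycs and Idi1, are uncertain.

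KLA treatment resulted in broad induction and repression in each set (called at a fold change above 1.5 and an adjusted p below 0.05). In the RGFP966 set 3399 genes were induced (27.9% of the 12196 tested) and 3924 lowered (32.2%). The Pgc1b flox set had fewer, with 2787 induced (22.8% of 12205) and 3133 lowered (25.7%). The DMSO set had 3647 induced (29.6% of 12332) and 3619 lowered (29.3%). Of the 11762 genes tested in all 3 sets, 2365 (20.1%) were induced and 2413 (20.5%) were lowered in all 3, 3442 (29.3%) were called in none, and 31 (0.264%) were induced in one set and lowered in another. The genes induced in all 3 sets made up 69.6% of those induced in the RGFP966 set, 84.9% in the Pgc1b flox set and 64.8% in the DMSO set, and the lowered ones made up 61.5%, 77% and 66.7%. Of the agreed genes, 409 induced (17.3%) and 171 lowered (7.09%) changed at least 10-fold in every set, and 114 induced genes changed at least 100-fold, a size that no lowered gene reached in all 3 sets. The log2 fold changes of 11766 genes listed with the same transcript in the 3 tables correlated between sets, with Pearson's r of 0.896 for the RGFP966 and Pgc1b flox sets, 0.934 for the RGFP966 and DMSO sets and 0.887 for the Pgc1b flox and DMSO sets. These correlations are across genes, which are not independent of each other.

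**Figure D1:**
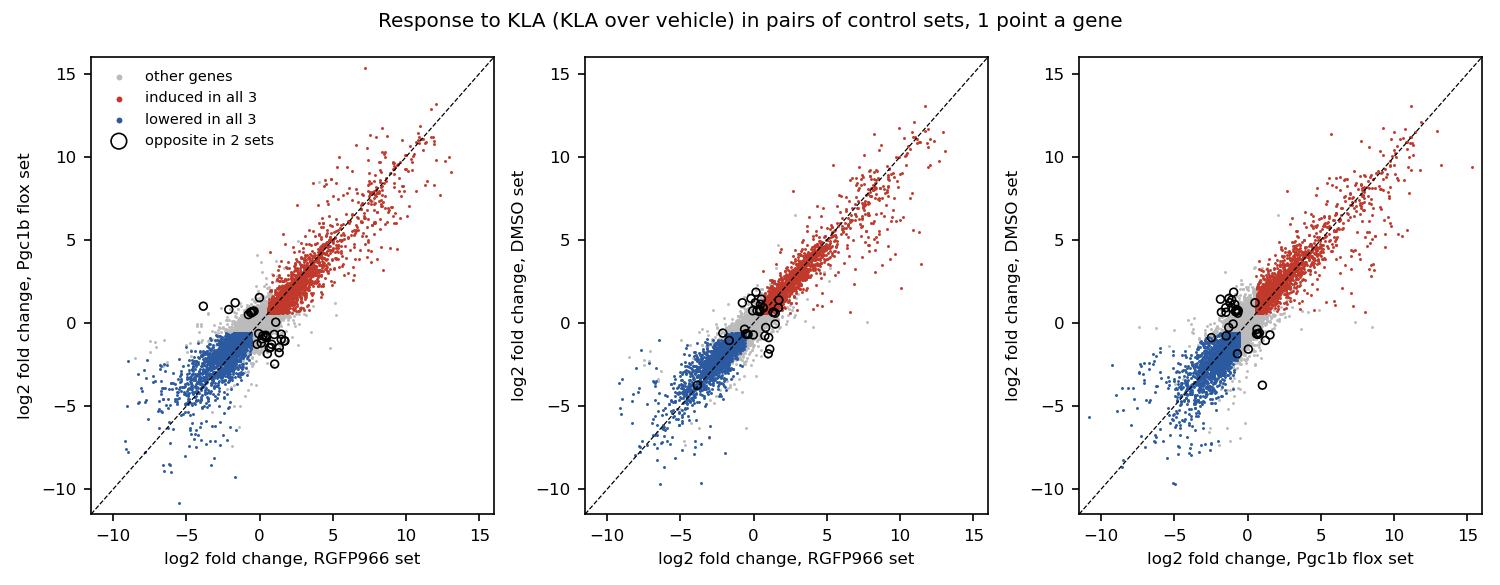
Each point is a gene, placed by its log2 fold change with KLA in one set (x axis) and in another (y axis), for the 3 pairs of sets. Red points are the genes induced in all 3 sets, blue points the genes lowered in all 3, and black circles the 31 genes called in opposite directions; most coloured points lie along the dashed line of equal response.

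Cytokine genes were strongly induced in all 3 sets. Of the 24 on the list, 22 were tested in all 3 sets, and 20 of these were induced in each, beside 20.1% of all genes. The median log2 fold changes over the tested members were 7.55, 6.81 and 6.53 in the RGFP966, Pgc1b flox and DMSO sets. The medians over all genes were -0.07, -0.05 and 0.02. Il6, a driver of the acute phase response, was at 0.162 and 0.295 CPM at vehicle against 826 and 962 with KLA in the RGFP966 set. For Il6 the Pgc1b flox set gave 0.458 and 0.378 against 661 and 778 and the DMSO set 0.365 and 0.126 against 734 and 898. KLA libraries lay far above vehicle libraries in every set, and the KLA libraries of the DMSO set overlapped those of both other sets. The log2 fold changes of Il6 were 11.87 ± 0.14, 10.77 ± 0.17 and 11.69 ± 0.12 (± SE; adjusted p = 6.38e-77, 1.88e-29 and 8.98e-70). Il12b, the shared subunit of IL12 and IL23, was at 0.108 and 0.236 CPM at vehicle against 340 and 400 with KLA in the RGFP966 set. For Il12b the Pgc1b flox set gave 0.305 and 0.567 against 946 and 975 and the DMSO set 0.609 and 0.252 against 897 and 1037. Its log2 fold changes spanned 0.16, at 11 ± 0.15, 11.07 ± 0.34 and 11.16 ± 0.091, although its KLA level in the RGFP966 set was lower than in the other sets. The vehicle libraries of Il6 and Il12b held few counts, as 3 counts equal 0.162 to 0.345 CPM. The sizes of their fold changes, and the closeness of those of Il12b, are therefore imprecise. Il1b, the pyrogenic product of the inflammasome, had log2 fold changes of 10.66, 10.87 and 10.49, and Il27, which restrains T cells, of 10.39, 9.23 and 10.10. Il10, the main anti-inflammatory cytokine, was at 1.51 and 1.71 against 65.3 and 55.6 CPM in the RGFP966 set, 1.53 and 1.13 against 35.6 and 22.6 in the Pgc1b flox set and 0.73 and 0.693 against 19.4 and 19.7 in the DMSO set, vehicle first, and rose in each. Ifnb1, encoding interferon β itself, had no count in any of the 6 vehicle libraries and 40 and 70, 56 and 69, and 45 and 41 counts with KLA, which is at least 33.0-fold, 31.7-fold and 25.1-fold higher against a floor of 3 counts per library. Il12a, the other subunit of IL12, also had no count in Veh and was at 60.5 and 65.1 CPM in KLA, at least 370-fold higher. Its Pgc1b flox and DMSO vehicle libraries held at most 2 counts, and its KLA libraries were at 36.9 and 36.3 CPM in the Pgc1b flox set and 55.9 and 64.7 in the DMSO set.

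Of the 11 prostaglandin genes tested in all 3 sets, 5 were induced and 5 lowered in all 3, beside 20.1% and 20.5% of all genes. The lowered genes were Ptgs1, which encodes cyclooxygenase 1, the synthase gene Hpgds, the degrading enzyme Hpgd, the receptor gene Ptger2 and Alox5ap of leukotriene synthesis, with log2 fold changes between -0.75 and -5.28. Ptgs2 encodes cyclooxygenase 2, the inducible enzyme of prostaglandin synthesis, and was at 1.67 and 2.42 CPM at vehicle against 7034 and 7910 with KLA in the RGFP966 set. For Ptgs2 the Pgc1b flox set gave 4.5 and 2.96 against 8072 and 8889 and the DMSO set 4.32 and 3.34 against 6086 and 6963. Its log2 fold changes were 11.82 ± 0.10, 11.21 ± 0.11 and 10.80 ± 0.080 (adjusted p = 1.32e-85, 1.61e-40 and 3.5e-56), and the DMSO response was smaller than the RGFP966 response by a log2 difference of -1.11 ± 0.27 (adjusted p = 0.00535). Ptges, the enzyme that turns its product into prostaglandin E2, had log2 fold changes of 7.13, 6.63 and 7.31 with no called difference. Nos2, which makes nitric oxide, was at 0.162 and 0.65 CPM at vehicle against 1577 and 1165 with KLA in the RGFP966 set. For Nos2 the Pgc1b flox set gave 0 and 0.189 against 876 and 801 and the DMSO set 0.304 and 0.063 against 560 and 575. Its KLA libraries were highest in the RGFP966 set and lowest in the DMSO set without overlap, whereas the differences between its fold changes (1.13 ± 1.84 for Pgc1b flox minus RGFP966) were not called, and its vehicle libraries held few counts. Acod1, the itaconate-producing enzyme, was at 13310 and 13250 CPM in KLA, 10320 and 10510 in Pgc1b_flox_KLA and 12430 and 12820 in DMSO_KLA, from at most 7.18 at vehicle. The test over all 3 sets called 1 of 9 members of the nitric oxide, arginine and itaconate list different, beside 21.6% of all genes. It was Slc7a1, a cationic amino acid transporter. Between the DMSO and Pgc1b flox sets alone, 1 member was called with a higher and 1 with a lower log2 fold change in the DMSO set. Cp, encoding the copper-binding ferroxidase ceruloplasmin, was at 5.88 and 4.90 CPM at vehicle against 1052 and 1131 with KLA in the RGFP966 set. For Cp the Pgc1b flox set gave 0.305 and 0.441 against 130 and 132 and the DMSO set 2.43 and 3.02 against 369 and 385. All 3 sets had strong induction, with log2 fold changes of 7.63 ± 0.090, 8.43 ± 0.22 and 7.18 ± 0.084, and levels did not overlap between sets in either arm.

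**Figure D2:**
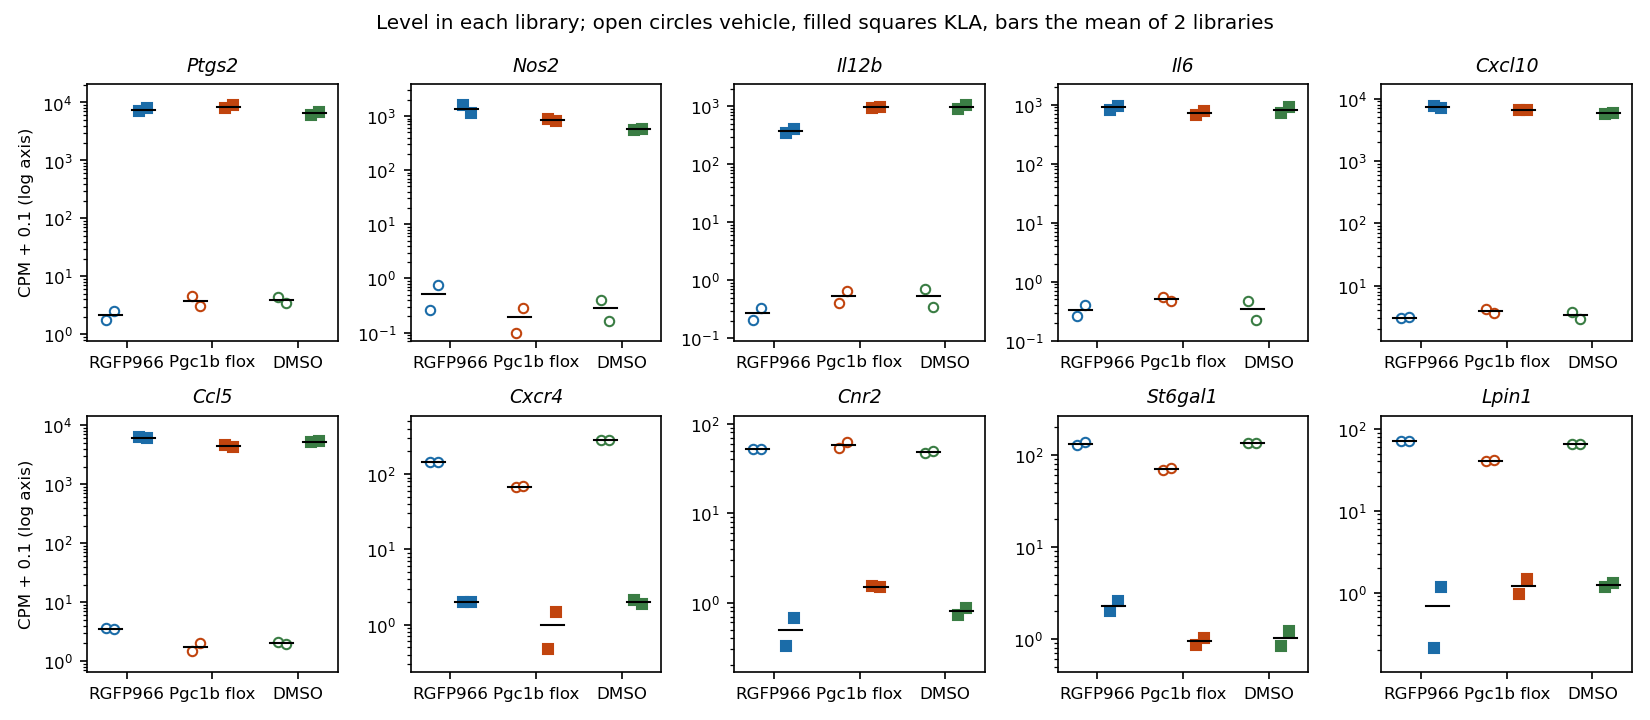
The level of 10 genes in each of the 12 libraries, as CPM plus 0.1 on a log axis, with vehicle and KLA libraries side by side for each set. Ptgs2, Nos2, Il12b, Il6, Cxcl10 and Ccl5 rose and Cxcr4, Cnr2, St6gal1 and Lpin1 fell in all 3 sets, and no KLA library overlapped a vehicle library of any set.

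Of the 20 chemokine genes tested in all 3 sets, 19 were induced in each, beside 20.1% of all genes. The median log2 fold changes over the members tested in each set were 7.34, 8.85 and 8.02. Cxcl10 was at 2.86 and 3.01 CPM at vehicle against 7576 and 7044 with KLA in the RGFP966 set. For Cxcl10 the Pgc1b flox set gave 4.04 and 3.53 against 6531 and 6680 and the DMSO set 3.71 and 2.77 against 5748 and 5934, with log2 fold changes of 11.26 ± 0.097, 10.81 ± 0.11 and 10.88 ± 0.064 and no called difference between any pair of sets. Ccl5, a chemokine for T cells and monocytes, had log2 fold changes of 10.79 ± 0.092, 11.40 ± 0.11 and 11.49 ± 0.068. Called differences were nevertheless common, in 10 of the 20 chemokines in the joint fit of the 12 libraries (50%). The share was 21.6% of all 11766 genes and 32.6% of those induced in all 3 sets. Ccl2, the main monocyte attractant, was at 4.53 and 4.90 CPM at vehicle against 267 and 278 with KLA in the RGFP966 set. For Ccl2 the Pgc1b flox set gave 85.0 and 76.4 against 2043 and 1873 and the DMSO set 2.98 and 2.33 against 513 and 521. Both its vehicle and its KLA levels were highest in the Pgc1b flox set, without overlap, and its log2 fold changes were 5.83 ± 0.095, 4.64 ± 0.074 and 7.67 ± 0.082. The response was smaller in the Pgc1b flox set than in the RGFP966 set by a log2 difference of -1.25 ± 0.13 (adjusted p = 7.41e-11) and larger in the DMSO set by 1.75 ± 0.19 (adjusted p = 1.73e-09). Its genomic neighbour Ccl7 had log2 fold changes of 6.69, 5.58 and 8.70, and Ccl3 and Ccl4, chemokines for monocytes and T cells, had 7.13, 6.32 and 8.02, and 6.52, 5.41 and 7.36. In all 4 genes the order was DMSO above RGFP966 above Pgc1b flox, each step with a called difference, and in all 4 the vehicle level ran the opposite way. Cxcl11 and Cxcl9, ligands of the same receptor as Cxcl10, were at or near 0 at vehicle in every set. Cxcl9 reached 985 and 752 CPM in KLA, 96.3 and 78.5 in Pgc1b_flox_KLA, at least 418-fold above the floor there, and 212 and 223 in DMSO_KLA.

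All 32 interferon-stimulated genes on the list were induced in each of the 3 sets, beside 20.1% of all genes, with medians of 6.72, 6.79 and 6.56. Rsad2 was at 28.7 and 28.9 CPM at vehicle against 17310 and 15940 with KLA in the RGFP966 set. For Rsad2 the Pgc1b flox set gave 25.2 and 23.9 against 14150 and 14600 and the DMSO set 27.3 and 28.7 against 10580 and 10870. Vehicle libraries lay between 23.9 and 28.9 CPM in all sets, while the KLA libraries followed the order RGFP966, Pgc1b flox, DMSO without overlap. Its log2 fold changes were 9.15 ± 0.078, 9.23 ± 0.12 and 8.65 ± 0.049, with DMSO minus RGFP966 at -0.59 ± 0.091 (adjusted p = 3.95e-06). Ifit1 was at 10.5 and 9.04 CPM at vehicle against 4020 and 3945 with KLA in the RGFP966 set. For Ifit1 the Pgc1b flox set gave 9.54 and 6.42 against 3103 and 3357 and the DMSO set 10.5 and 10.8 against 2798 and 2935, with a like difference of -0.60 ± 0.13 (adjusted p = 0.00129). Isg15, a ubiquitin-like modifier, had log2 fold changes of 8.01, 7.79 and 8.09 and Gbp2, a GTPase of cell-autonomous defence, of 7.92, 7.97 and 7.89, with no called difference for either. Of the 31 interferon-stimulated genes in the joint fit, 15 (48.4%) had a called difference, beside 21.6% of all genes and 32.6% of those induced in all 3 sets. Of the 31, 9 responded less in the DMSO set than in the RGFP966 set against none that responded more. In 22 of 31 (71%) both RGFP966 KLA libraries lay above the 4 KLA libraries of the other sets. The share was 24% of all genes and 46.5% of the 2237 genes induced in all 3 sets. In 20 of 31 (64.5%) both Pgc1b flox KLA libraries lay below, beside 23.4% of all genes and 44.7% of those induced in all 3. Much of this order was thus shared by induced genes in general. At vehicle 17 of 31 (54.8%) were lowest in the Pgc1b flox set, beside 25.3% of all genes and 26.6% of those induced in all 3. Among the factors that relay the interferon signal, Stat2 (4.20, 4.09 and 4.08) and Irf7 (6.67, 6.36 and 6.5) were induced in all 3 sets with no called pairwise difference.

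NFκB subunits and their feedback inhibitors were induced in all 3 sets in 21 of 22 genes, beside 20.1% of all genes. Their medians were 3.19, 3.68 and 3.54. Nfkbia, the inhibitor that returns NFκB to the cytoplasm, was at 40.0 and 45.1 CPM at vehicle against 1684 and 1658 with KLA in the RGFP966 set. For Nfkbia the Pgc1b flox set gave 36.5 and 40.2 against 1171 and 1062 and the DMSO set 45.8 and 46.0 against 1546 and 1563. KLA libraries lay above vehicle libraries in every set, vehicle libraries of the RGFP966 and Pgc1b flox sets overlapped, and its log2 fold changes of 5.27, 4.90 and 5.16 gave no called pairwise difference. The same was true of Nfkb1 (3.20, 3.44 and 3.39), which encodes p50, and of the ubiquitin editor Tnfaip3 (5.48, 4.97 and 5.52). Called differences were found for 9 of the 22 genes (40.9%), beside 21.6% of all genes and 32.6% of those induced in all 3 sets. Tnip3, a partner of Tnfaip3, rose less in the Pgc1b flox set, with log2 fold changes of 4.34, 2.31 and 4.03 and a difference from the RGFP966 set of -2.08 ± 0.092 (adjusted p = 5.36e-23), as did the MAP kinase phosphatase Dusp1 (3.17, 1.80 and 2.61). Zfp36, which destabilises cytokine mRNAs, rose more there (2.80, 3.92 and 2.6), as did Nfkbiz (4.79, 5.90 and 5.18), a coactivator of Il6 and Il12b, and in both the vehicle level was lowest in the Pgc1b flox set. The receptor gene Tlr4 itself was at 185 and 196 CPM at vehicle against 139 and 144 with KLA in the RGFP966 set. For Tlr4 the Pgc1b flox set gave 194 and 172 against 126 and 144 and the DMSO set 125 and 132 against 90.3 and 98.3. It was lower with KLA than at vehicle within each set but by less than 1.5-fold, and was called in none. Its accessory proteins Cd14 (2.84, 2.27 and 2.93) and Ly96 (1.91, 1.13 and 1.48) and the adaptor Myd88 (2.98, 2.44 and 2.91) rose in all 3 sets. Of the 28 genes of the TLR pathway tested in all 3, 18 were induced and none was lowered in all 3. Over all genes these shares were 20.1% and 20.5%.

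Some secreted factors departed from this agreement. Il1rn, the natural antagonist of the IL1 receptor, was at 18.0 and 19.2 CPM at vehicle against 3836 and 3424 with KLA in the RGFP966 set. For Il1rn the Pgc1b flox set gave 112 and 100 against 1991 and 2099 and the DMSO set 16.6 and 17.9 against 1456 and 1580. Its vehicle libraries in the Pgc1b flox set lay above those of the other sets by a wide margin, and the log2 fold changes were 7.59 ± 0.079, 4.31 ± 0.085 and 6.53 ± 0.055, a difference between Pgc1b flox and RGFP966 of -3.34 ± 0.099 (adjusted p = 1.4e-29). Osm, encoding the IL6-family cytokine oncostatin M, was at 5.34 and 5.38 CPM at vehicle against 4.70 and 7.10 with KLA in the RGFP966 set. For Osm the Pgc1b flox set gave 4.27 and 3.21 against 28.5 and 32.2 and the DMSO set 5.54 and 4.98 against 19.6 and 21.2. KLA and vehicle libraries overlapped in the RGFP966 set and were apart in the other sets, and the log2 fold changes were 0.13 ± 0.22, 3.07 ± 0.21 and 2.02 ± 0.16, with Pgc1b flox minus RGFP966 at 2.87 ± 0.28 (adjusted p = 2.7e-11). The T cell ligand Tnfsf9 had log2 fold changes of 6.41, 2.86 and 5.97, with a difference of -3.61 ± 0.28 for Pgc1b flox minus RGFP966 (adjusted p = 1.02e-14). Tnf was at 18.4 and 17.6 CPM at vehicle against 2912 and 3090 with KLA in the RGFP966 set. For Tnf the Pgc1b flox set gave 30.6 and 25.9 against 3100 and 3035 and the DMSO set 10.5 and 10.5 against 3888 and 4162, so that its vehicle level was highest in the Pgc1b flox set and lowest in the DMSO set. Its log2 fold changes were 7.36 ± 0.077, 6.81 ± 0.085 and 8.65 ± 0.055, and every pair of sets had a called difference. Csf2, the growth factor GM-CSF, had no vehicle count in any set and 3 and 5 counts in KLA, 109 and 72 in Pgc1b_flox_KLA and 68 and 73 in DMSO_KLA. Against the floor it was at least 44.6-fold higher in the Pgc1b flox set and 41.2-fold in the DMSO set, and the 3 and 5 counts of the RGFP966 set are near that floor. No difference between sets was called for it, and with vehicle at 0 its fitted fold changes are not bounds. Csf3, the granulocyte growth factor, followed the same pattern, at 2.35 and 2.50 CPM in KLA against 24.6 and 18.9 in Pgc1b_flox_KLA and 6.11 and 6.13 in DMSO_KLA.

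**Figure D3:**
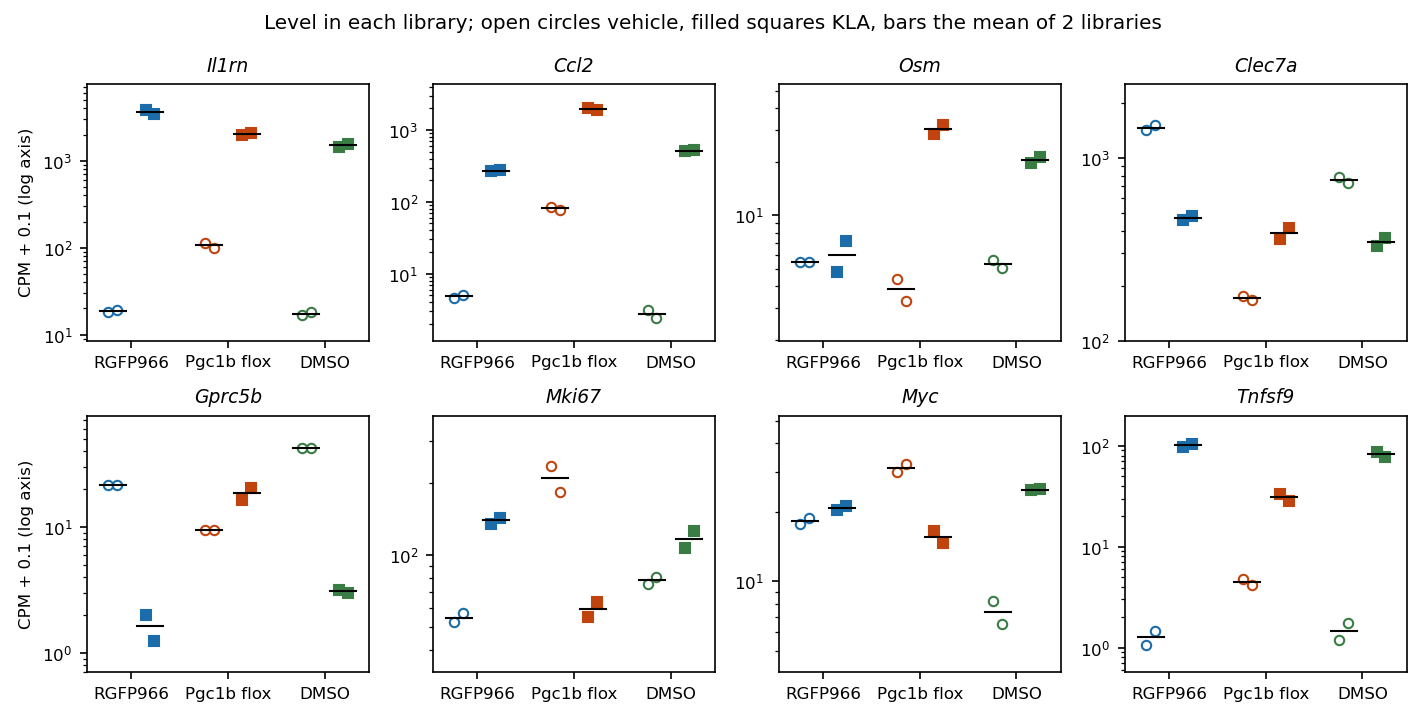
The level of 8 genes in each of the 12 libraries, as CPM plus 0.1 on a log axis, in the same layout. Il1rn and Ccl2 start from a higher vehicle level in the Pgc1b flox set, Osm has overlapping vehicle and KLA libraries in the RGFP966 set, and Clec7a, Gprc5b and Mki67 move in opposite directions in the Pgc1b flox and RGFP966 sets.

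All 11 genes of MHC class I presentation were induced in each set, beside 20.1% of all genes, with medians of 2.76, 2.84 and 3.1. None of the 11 had a called difference, beside 21.6% of all genes and 32.6% of those induced in all 3 sets. H2-K1, a classical class I heavy chain, was at 720 and 654 CPM at vehicle against 2250 and 2091 with KLA in the RGFP966 set. For H2-K1 the Pgc1b flox set gave 368 and 370 against 1460 and 1275 and the DMSO set 753 and 761 against 2433 and 2495, and its log2 fold changes were 1.64 ± 0.056, 1.93 ± 0.063 and 1.77 ± 0.035. B2m, the shared light chain, had 1.25, 1.23 and 1.33. Levels differed, with both Pgc1b flox vehicle libraries the lowest of the 6 in 7 of the 11 genes (63.6%, beside 25.3% of all genes) and both its KLA libraries in 10 of the 11 (90.9%, beside 23.4%). Among genes induced in all 3 sets the shares were 26.6% at vehicle and 44.7% with KLA.

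MHC class II genes, which present antigen to CD4 T cells, differed in both level and response. H2-Ab1, a class II β chain, was at 271 and 260 CPM at vehicle against 526 and 468 with KLA in the RGFP966 set. For H2-Ab1 the Pgc1b flox set gave 9.61 and 8.63 against 69.3 and 59.6 and the DMSO set 36.1 and 40.9 against 164 and 163. No library of one set overlapped a library of another in the same arm, and the order RGFP966, DMSO, Pgc1b flox held in both arms. The log2 fold changes ran the other way, at 0.88 ± 0.058, 2.87 ± 0.14 and 2.16 ± 0.063, with a difference of 1.93 ± 0.13 for Pgc1b flox minus RGFP966 (adjusted p = 9.15e-17). Cd74, the invariant chain, had log2 fold changes of 0.74, 1.94 and 1.62, and H2-Aa, the α chain, of 0.29, 1.39 and 0.96, of which that in the RGFP966 set was not called. Of 6 class II genes in the joint fit, 5 (83.3%) had a called difference, beside 21.6% of all genes. Each of the 5 had a larger response in the Pgc1b flox set than in the RGFP966 set. All 6 were lowest in the Pgc1b flox set in both arms, beside 25.3% of all genes at vehicle and 23.4% with KLA, and highest in the RGFP966 set in both arms, beside 15.3% and 24%. Markers of dendritic cells, which express class II strongly, summed to at most 6.47 CPM in any library, and their part in these levels was not tested.

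The most strongly lowered genes had varied functions. The list of 20 resting macrophage receptors had 6 members induced and 5 lowered in all 3 sets, beside 20.1% and 20.5% of all genes. Cxcr4, the receptor for the bone marrow chemokine CXCL12, was at 145 and 144 CPM at vehicle against 1.90 and 1.92 with KLA in the RGFP966 set. For Cxcr4 the Pgc1b flox set gave 67.4 and 68.4 against 0.38 and 1.38 and the DMSO set 280 and 286 against 2.00 and 1.78. KLA libraries held at most 2.00 CPM in all 3 sets, and vehicle levels were ordered DMSO, RGFP966, Pgc1b flox without overlap. Its log2 fold changes were -6.26 ± 0.14, -6.29 ± 0.25 and -7.14 ± 0.11. Cnr2, the cannabinoid receptor of immune cells, was at 52.1 and 51.9 CPM at vehicle against 0.224 and 0.576 with KLA in the RGFP966 set. For Cnr2 the Pgc1b flox set gave 54.0 and 62.4 against 1.43 and 1.38 and the DMSO set 46.5 and 49.3 against 0.632 and 0.78, with log2 fold changes of -6.96 ± 0.22, -5.33 ± 0.20 and -6.00 ± 0.21. St6gal1, which adds sialic acid to glycoproteins, had log2 fold changes of -5.92, -6.36 and -7.10, and Rasgrp3, an activator of Ras and Rap, of -7.61, -5.75 and -7.09. The other genes that the rule for the most strongly lowered selected were Galnt9, Sox4, 2900026A02Rik, Lpin1, E2f2, Tbc1d2, Tcp11l2 and Cd28. Sox4, a transcription factor of progenitors, had no count in either Pgc1b_flox_KLA library, where it was at least 55.9-fold lower than vehicle, and was at 0.448 and 1.15 CPM in KLA and 0.948 and 1.34 in DMSO_KLA. E2f2, a cell cycle factor, had no count in either KLA library of the RGFP966 set, at least 17.2-fold lower than Veh.

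Genes of cell division fell in each set, with 20, 23 and 19 of 25 lowered, beside 32.2%, 25.7% and 29.3% of all genes. Their medians were -1.88, -2.16 and -1.73, and 19 were lowered in all 3, beside 20.5% of all genes. Induced members numbered 3 in the RGFP966 set, 0 in the Pgc1b flox set and 3 in the DMSO set, in both cases Mki67, Ccne1 and Tyms. Top2a, the topoisomerase of dividing cells, was at 42.2 and 46.8 CPM at vehicle against 4.59 and 6.33 with KLA in the RGFP966 set. For Top2a the Pgc1b flox set gave 157 and 147 against 21.5 and 34.0 and the DMSO set 49.0 and 47.9 against 6.74 and 8.80. Vehicle libraries of the Pgc1b flox set lay well above the rest, and its KLA libraries were also the highest of their arm. The log2 fold changes were -3.03 ± 0.14, -2.43 ± 0.12 and -2.57 ± 0.12, and the largest difference between them, 0.54 ± 0.23 for Pgc1b flox minus RGFP966, was not called. Rrm2, a subunit of ribonucleotide reductase, had -4.38, -4.14 and -3.89 and Cdk1, the mitotic kinase, -2.24, -2.24 and -1.52. Both Pgc1b flox vehicle libraries lay above the other 4 in 21 of 22 cell cycle genes in the joint fit (95.5%, beside 25.5% of all genes), and both KLA libraries in 14 of 22 (63.6%, beside 18.0%). Among genes lowered in all 3 sets the shares were 22.5% at vehicle and 27.5% with KLA. In bulk RNA a smaller number of dividing cells and less RNA per dividing cell cannot be told apart. Mki67, the proliferation antigen and the member called in opposite directions, was at 52.2 and 57 CPM at vehicle against 136 and 144 with KLA in the RGFP966 set. For Mki67 the Pgc1b flox set gave 236 and 185 against 55.1 and 63.3 and the DMSO set 75.6 and 81.3 against 107 and 126. It rose in the RGFP966 and DMSO sets and fell in the Pgc1b flox set, with log2 fold changes of 1.33 ± 0.074, -1.79 ± 0.11 and 0.65 ± 0.056 and a difference of -3.18 ± 0.14 for Pgc1b flox minus RGFP966 (adjusted p = 2.23e-16). Mki67 thus rose in the same libraries in which Top2a and Cdk1 fell. Ccna2, cyclin A2, fell in all 3 but by more in the Pgc1b flox set (-1.40, -2.99 and -1.38). Ccne1, cyclin E1, and Tyms, thymidylate synthase, were not called in the Pgc1b flox set, where their log2 fold changes were 0.02 and -0.55.

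The agreed genes were then read in libraries that none of the 3 sets used. In the NCoR table, BMDMs of NCoR flox/flox mice without Cre served as wild type, and their KLA libraries carry another date than their vehicle libraries. Of the genes induced in all 3 sets, 2223 of 2362 (94.12%) were induced there, beside 25.4% of all genes, and 2248 of 2413 lowered genes (93.16%) were lowered, beside 32.3%. Interferon β for 6 h in the same table, with vehicle of the same date, induced 391 of the 2362 (16.55%), beside 4.09% of all genes; both comparisons share the vehicle libraries. These 391 genes had larger median log2 fold changes with KLA (3.47, 3.11 and 3.36) than the 1971 that interferon β did not induce (1.67, 1.39 and 1.63). Called differences between sets were found in 154 of 372 of the former in the joint fit (41.4%) and in 575 of 1862 of the latter (30.9%).

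The size of the response differed in part of the genes even where the direction agreed. In the test over all 3 sets, a difference was called for 729 of 2237 genes induced in all 3 (32.6%). It was called for 593 of 2197 lowered in all 3 (27%) and 148 of 3246 called in none (4.56%). Over all 11766 genes, 1875 (15.9%) differed between the Pgc1b flox and RGFP966 sets, 1721 (14.6%) between the DMSO and Pgc1b flox sets and 600 (5.10%) between the DMSO and RGFP966 sets. The Pgc1b flox set gave the smallest of the 3 fold changes in 58.5% of the agreed induced genes and 54.8% of the agreed lowered ones. Median log2 fold changes were 1.85, 1.58 and 1.84 for the induced and -1.88, -1.54 and -1.71 for the lowered genes. Of the genes induced in both other sets but not called in the Pgc1b flox set, 233 of 621 had a called difference, and of those lowered, 219 of 738, so that for the rest a missing call does not show a different response. The 452 agreed induced genes with a smaller response in the Pgc1b flox than in the RGFP966 set had both a higher vehicle level (median log2 difference 0.34) and a lower KLA level (-0.57). The 75 with a larger response in the Pgc1b flox set had mainly a lower vehicle level (-1.08), with a median difference of -0.20 with KLA.

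**Figure D4:**
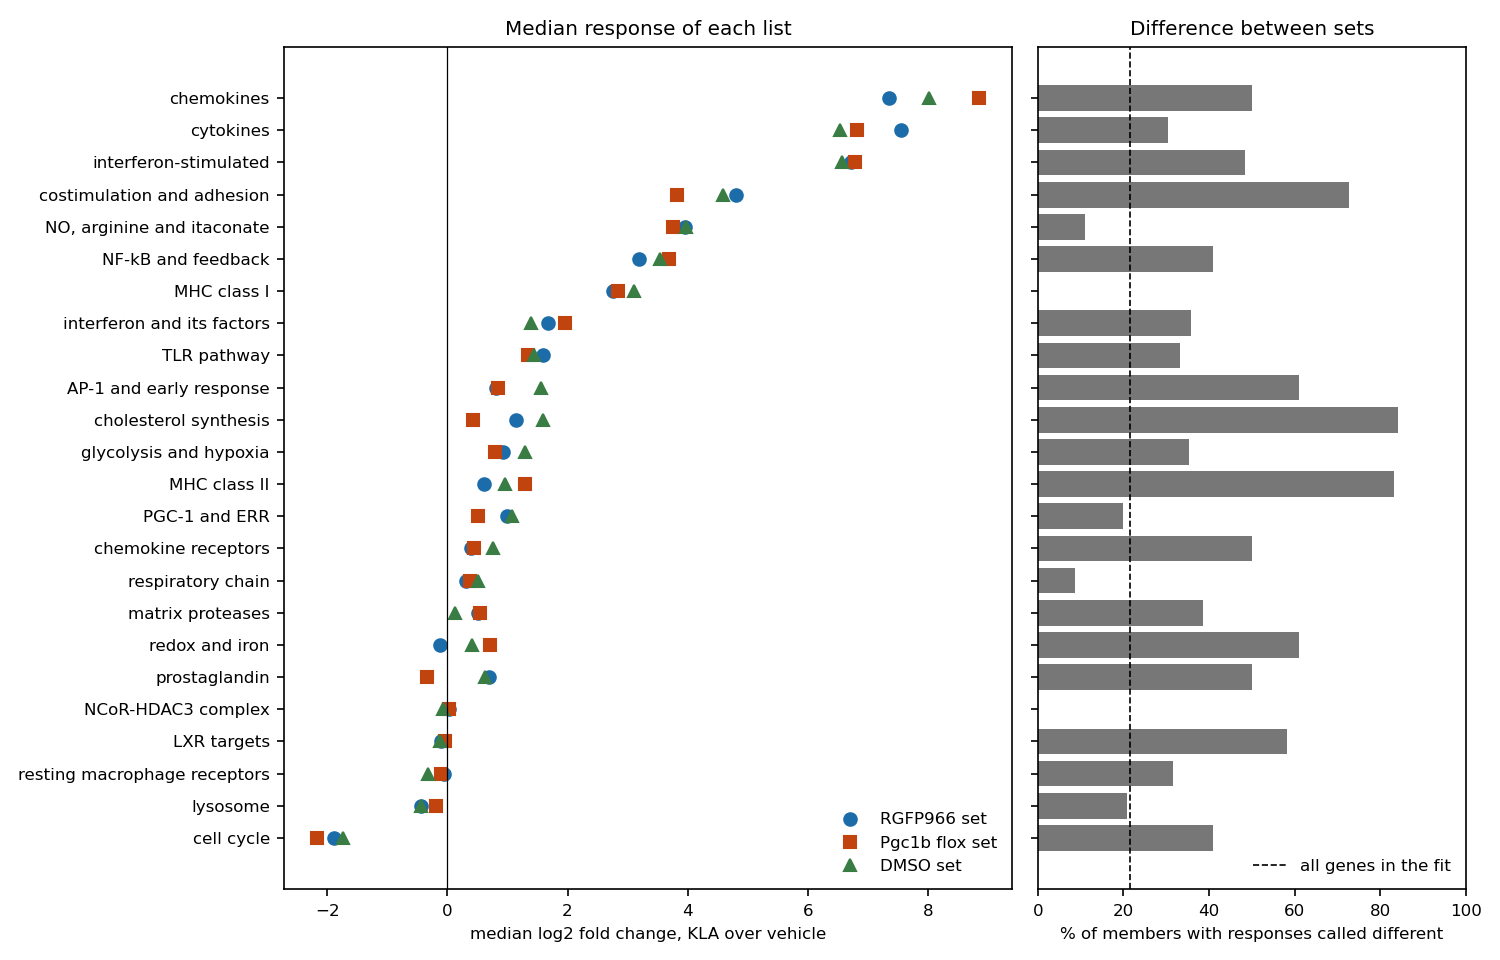
For each of the 24 gene lists, the left panel gives the median log2 fold change with KLA in the RGFP966 (circle), Pgc1b flox (square) and DMSO (triangle) sets, and the right panel the percentage of members with a called difference between sets. The dashed line is the 21.6% of all genes; cholesterol synthesis and MHC class II lie at over 80%, and MHC class I and the NCoR and HDAC3 complex at 0.

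Cholesterol synthesis had the largest share of differing genes of the 24 lists, 16 of 19 (84.2%), beside 21.6% of all genes. KLA raised 14 and lowered 2 of its 20 members in the RGFP966 set, raised 9 and lowered 1 in the Pgc1b flox set and raised 17 and lowered 2 in the DMSO set, with medians of 1.14, 0.42 and 1.59. Of all genes 27.9%, 22.8% and 29.6% were raised and 32.2%, 25.7% and 29.3% lowered, in the same order of sets. Hmgcs1, the synthase that makes HMG-CoA and whose promoter is printed above, was at 81.3 and 81.1 CPM at vehicle against 262 and 280 with KLA in the RGFP966 set. For Hmgcs1 the Pgc1b flox set gave 115 and 108 against 204 and 221 and the DMSO set 57.8 and 60.3 against 266 and 261. Vehicle libraries of the Pgc1b flox set lay above those of the other sets, whereas with KLA they lay below. The log2 fold changes were 1.72 ± 0.063, 0.97 ± 0.073 and 2.23 ± 0.052, with differences of -0.80 ± 0.091 for Pgc1b flox minus RGFP966 (adjusted p = 1.19e-09) and 1.22 ± 0.093 for DMSO minus Pgc1b flox (adjusted p = 1.27e-14). Sqle, squalene epoxidase, rose in the RGFP966 and DMSO sets and was not called in the Pgc1b flox set (1.32 ± 0.092, -0.11 ± 0.090 and 1.50 ± 0.081). Insig1, the sterol-sensing brake on the pathway, had its smallest log2 fold change in the Pgc1b flox set as well (1.62, 0.73 and 2.28). In 17 of 19 genes (89.5%, beside 25.5% of all genes) both Pgc1b flox vehicle libraries lay above the other 4 vehicle libraries, and in 1 of 19 was the same true with KLA. Fdft1 (-0.78, -0.33 and -0.77) and Dhcr7 (-3.0, -2.64 and -2.32), enzymes of the middle and the last step, were the members that went down: Fdft1 fell in the RGFP966 and DMSO sets and Dhcr7 in all 3, with no called difference for either.

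**Figure D5:**
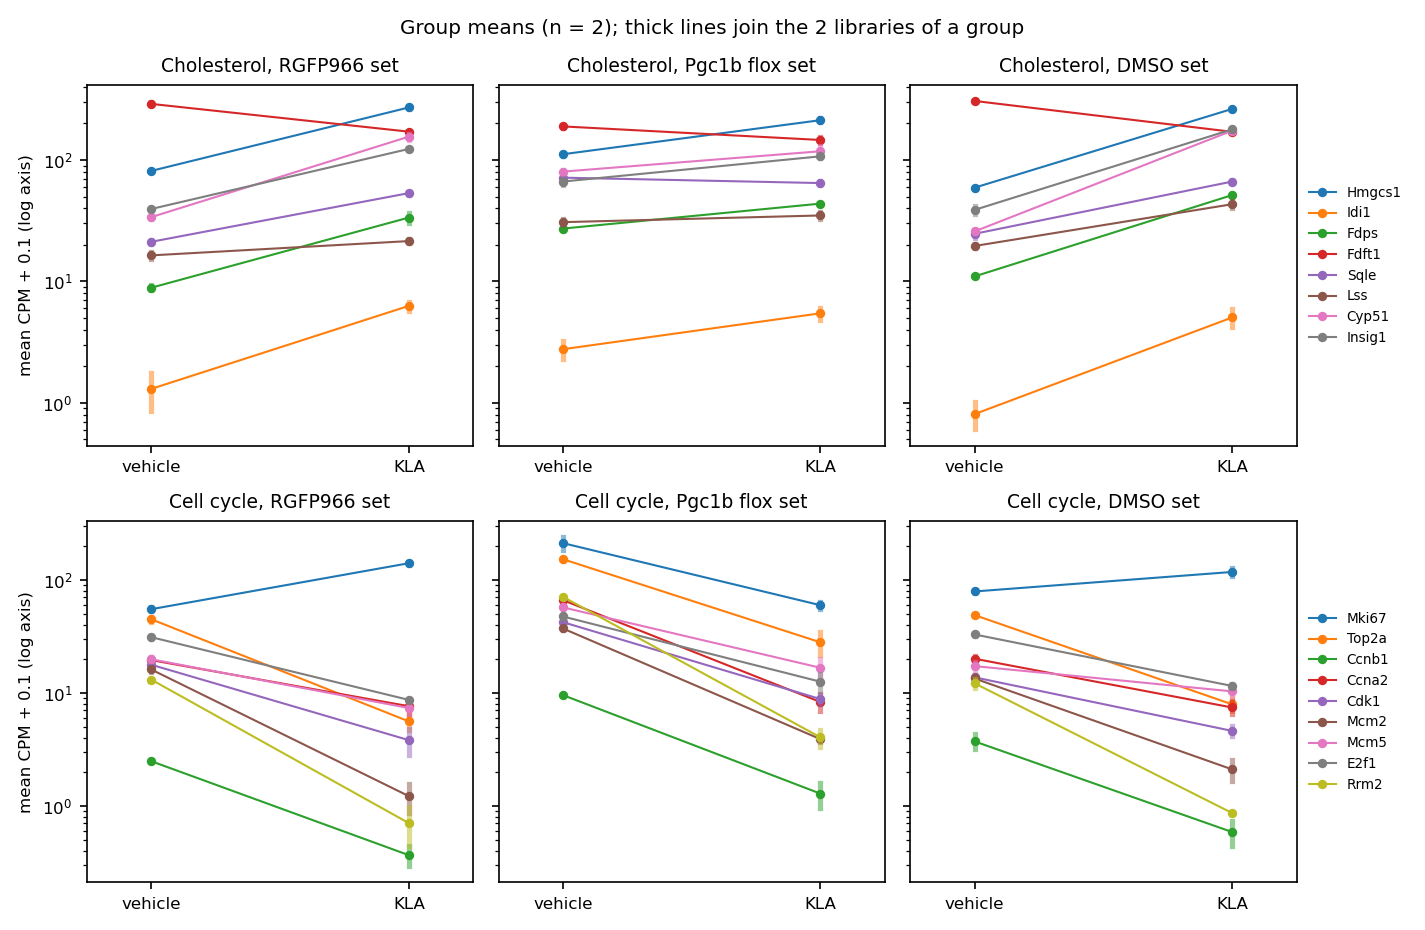
Group means in CPM on a log axis, vehicle to KLA, for 8 cholesterol genes and 9 cell cycle genes in the 3 sets; thick lines join the 2 libraries of a group. The Pgc1b flox set starts highest at vehicle in most panels, most of its cholesterol genes are no longer the highest with KLA, and all cell cycle genes shown but Mki67 fall in the 3 sets.

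Genes of iron export and oxidant defence also split, with 11 of 18 differing (61.1%), beside 21.6% of all genes. A higher log2 fold change in the Pgc1b flox than in the RGFP966 set was called for 8 genes of the list. For a gene that fell, such as Slc40a1, this means a smaller fall. Slc40a1, encoding the iron exporter ferroportin, was at 290 and 310 CPM at vehicle against 5.15 and 7.96 with KLA in the RGFP966 set. For Slc40a1 the Pgc1b flox set gave 69.0 and 73.6 against 15.8 and 15.3 and the DMSO set 153 and 156 against 2.74 and 5.13. It fell in all 3 sets, with log2 fold changes of -5.51 ± 0.10, -2.16 ± 0.13 and -5.23 ± 0.11, and the fall was smaller in the Pgc1b flox set by 3.30 ± 0.18 (adjusted p = 1.93e-19). Its vehicle level was lowest and its KLA level highest in that set. Hmox1, which breaks down heme, was at 356 and 356 CPM at vehicle against 371 and 416 with KLA in the RGFP966 set. For Hmox1 the Pgc1b flox set gave 556 and 568 against 1154 and 1245 and the DMSO set 272 and 268 against 302 and 330. It rose in the Pgc1b flox set and was not called in the other sets, with log2 fold changes of 0.12, 1.13 and 0.30. Catalase (Cat) fell in all 3, by less in the Pgc1b flox set (-1.77, -0.63 and -1.68). Slc7a11, the cystine importer that feeds glutathione synthesis, rose more in the Pgc1b flox and DMSO sets (3.37, 5.61 and 4.98) than in the RGFP966 set.

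Costimulatory and adhesion molecules were induced in all 3 sets in each of the 10 genes tested there, beside 20.1% of all genes. The size of the response differed in 8 of 11 (72.7%), beside 21.6% of all genes and 32.6% of those induced in all 3 sets. Vcam1, an adhesion molecule for lymphocytes, was at 1.62 and 1.71 CPM at vehicle against 426 and 454 with KLA in the RGFP966 set. For Vcam1 the Pgc1b flox set gave 15.9 and 14.9 against 215 and 209 and the DMSO set 4.99 and 5.86 against 322 and 341. Vehicle levels were ordered Pgc1b flox, DMSO, RGFP966 and KLA levels the reverse, and the log2 fold changes were 8.02 ± 0.11, 3.82 ± 0.092 and 6.00 ± 0.077, with Pgc1b flox minus RGFP966 at -4.26 ± 0.17 (adjusted p = 7.15e-25). The ICOS ligand Icosl also responded least in the Pgc1b flox set (4.81, 3.26 and 4.62). Cd86, a ligand of CD28, and Cd274, which encodes PD-L1, responded most there (3.81, 4.75 and 3.52 for Cd86 and 4.91, 5.83 and 4.54 for Cd274). Cd40 was at 2994 and 2919 CPM in KLA, 1971 and 1924 in Pgc1b_flox_KLA and 2380 and 2451 in DMSO_KLA, from at most 5.60 at vehicle.

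Among the 31 genes called in opposite directions, 20 opposed the Pgc1b flox and DMSO sets, 15 the RGFP966 and Pgc1b flox sets and 5 the RGFP966 and DMSO sets. Of the 9 that were called in all 3 sets, Pgc1b flox was the odd one out in 6, RGFP966 in 3 and DMSO in none. All 28 that entered the joint fit had a called difference. Clec7a, encoding dectin-1, the receptor for fungal β-glucan, was at 1427 and 1506 CPM at vehicle against 458 and 479 with KLA in the RGFP966 set. For Clec7a the Pgc1b flox set gave 176 and 167 against 361 and 413 and the DMSO set 790 and 728 against 331 and 366. Vehicle levels were highest in the RGFP966 set and lowest in the Pgc1b flox set, while KLA levels lay between 331 and 479 CPM in all 6 libraries. The log2 fold changes were -1.67 ± 0.057, 1.21 ± 0.073 and -1.05 ± 0.040, with a difference of 2.82 ± 0.089 for Pgc1b flox minus RGFP966 (adjusted p = 1.05e-28). Gprc5b, an orphan receptor, was at 21.5 and 21.2 CPM at vehicle against 1.90 and 1.15 with KLA in the RGFP966 set. For Gprc5b the Pgc1b flox set gave 9.31 and 9.32 against 16.4 and 20.2 and the DMSO set 42.2 and 42.0 against 3.05 and 2.90. It fell in the RGFP966 and DMSO sets and rose in the Pgc1b flox set, with log2 fold changes of -3.84 ± 0.22, 1.01 ± 0.18 and -3.75 ± 0.16. Myc, a driver of growth and proliferation, was at 17.7 and 18.8 CPM at vehicle against 20.3 and 21.1 with KLA in the RGFP966 set. For Myc the Pgc1b flox set gave 29.8 and 32.1 against 16.4 and 14.6 and the DMSO set 8.09 and 6.42 against 24.8 and 25.2. It was not called in the RGFP966 set, lowered in the Pgc1b flox set and induced in the DMSO set (0.16 ± 0.12, -0.95 ± 0.15 and 1.85 ± 0.14). Spred2, a brake on ERK signalling, and Fads2, a desaturase of fatty acid synthesis, had the same pattern (0.11, -1.21 and 1.22 and -0.18, -1.28 and 1.47). Tmpo, a protein of the nuclear lamina, rose in the RGFP966 set and fell in the Pgc1b flox set (1.48, -0.99 and -0.07), and Brip1, a DNA repair helicase, fell in the Pgc1b flox set alone and rose in the others (0.67, -1.50 and 0.91). Net1 and E2f8 were also among the 10 selected but are listed with different transcripts in the tables, and their responses are not compared here.

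Several of the genes that responded least in the DMSO set relative to the others encode extracellular matrix proteins. Tnc, encoding the matrix protein tenascin C, was at 0 and 0.0591 CPM at vehicle against 45.5 and 38.3 with KLA in the RGFP966 set. For Tnc the Pgc1b flox set gave 0.686 and 0.252 against 40.5 and 37.1 and the DMSO set 14.8 and 15.9 against 63.3 and 63.7. DMSO vehicle libraries stood far above the other vehicle libraries, and the KLA libraries of the DMSO set were the highest of their arm by a smaller margin. Its log2 fold changes were 10.09 ± 0.32, 6.44 ± 0.29 and 2.12 ± 0.096, with DMSO minus RGFP966 at -8.06 ± 0.46 (adjusted p = 3.05e-18). Fbn1, which encodes fibrillin, was at 0 and 0.177 CPM at vehicle against 9.41 and 8.54 with KLA in the RGFP966 set. For Fbn1 the Pgc1b flox set gave 0 and 0.063 against 11.9 and 10.6 and the DMSO set 9.55 and 9.20 against 14.4 and 13.4. The procollagen protease Bmp1 was at 0 and 0 CPM at vehicle against 23.6 and 28.7 with KLA in the RGFP966 set. For Bmp1 the Pgc1b flox set gave 0.0763 and 0 against 15.3 and 17 and the DMSO set 4.32 and 2.90 against 39.9 and 41.6. Inhba, a subunit of activin A, had log2 fold changes of 8.21, 8.47 and 5.07 and DMSO vehicle levels of 4.69 and 6.36 CPM against at most 0.945 in the other vehicle libraries. The 5 fibroblast markers were highest in the same set, with Col1a1 at 20.1 and 18.1 CPM in DMSO_Veh and 17.1 and 16.8 in DMSO_KLA against at most 1.14 elsewhere, and their part in these responses was not tested. Fitted fold changes of Tnc, Fbn1 and Bmp1 in the other sets start from between 0 and 9 counts and are imprecise.

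The lists closest to the cofactors under study varied in their share of called differences, beside 21.6% of all genes. They numbered 0 of 10 NCoR and HDAC3 complex genes, 1 of 5 PGC1 and ERR genes and 7 of 12 LXR targets. Ncor1, encoding NCoR, was at 190 and 187 CPM at vehicle against 209 and 193 with KLA in the RGFP966 set. For Ncor1 the Pgc1b flox set gave 151 and 146 against 161 and 156 and the DMSO set 175 and 164 against 157 and 166. Hdac3 was at 36.0 and 38.0 CPM at vehicle against 33.1 and 37.2 with KLA in the RGFP966 set. For Hdac3 the Pgc1b flox set gave 32.3 and 36.9 against 35.1 and 34.1 and the DMSO set 36.6 and 33.8 against 28.5 and 30.0. Neither was called in any set, and none of the 10 genes of the NCoR and HDAC3 complex list had a called difference, although Tbl1xr1 fell and Tbl1x rose in all 3. Ppargc1b, encoding the coactivator PGC1β, was at 2.64 and 3.43 CPM at vehicle against 16.9 and 18.3 with KLA in the RGFP966 set. For Ppargc1b the Pgc1b flox set gave 4.12 and 2.71 against 7.13 and 6.21 and the DMSO set 3.29 and 3.78 against 12.8 and 12.3, and its log2 fold changes were 2.52 ± 0.19, 1.02 ± 0.29 and 1.90 ± 0.21. The gene rose in all 3 sets, by less in the Pgc1b flox set (Pgc1b flox minus RGFP966 -1.55 ± 0.33, adjusted p = 0.000196), and its vehicle libraries overlapped between the sets. Of 23 genes of the respiratory chain, 2 differed between sets, the electron carrier gene Cycs and the complex IV subunit gene Cox5a. Their levels nevertheless differed, with both Pgc1b flox vehicle libraries above the other 4 in 18 of 23 (78.3%, beside 25.5% of all genes) and both DMSO vehicle libraries below in 16 of 23 (69.6%, beside 20.3%). Lyz2, the lysozyme gene of myeloid cells, was between 5640 and 8451 CPM in all 12 libraries and called in none of the sets.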

How the data were processed

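The raw gene counts deposited by the authors were used as given. Per the labels and the study's methods, reads were aligned to mm10 with STAR and counted in exons of RefSeq transcripts with HOMER, strand-specifically and with 1 transcript per gene; the file headers name no strand option, and tool versions are not given in the sources used here. The 44 count columns were all assigned to groups, and 0 were left unused. Each table of the 3 sets was fitted with all its groups in edgeR 4.0.16 (R 4.3.3; TMM scaling, filterByExpr, robust quasi-likelihood F-test, 2-sided, Benjamini-Hochberg adjustment over all genes tested). Responses were compared in a joint fit of the 12 libraries with a coefficient per group, over genes listed with the same transcript in the 3 tables, so that a difference can depart slightly from the subtraction of the separate fits. A difference in any set was a single F-test with 2 degrees of freedom over the 3 responses, called with their range above 1.5-fold. It gave the counts of called differences in the lists and need not match the calls of single pairs. Genes were called at a fold above 1.5 with an adjusted p below 0.05. CPM values use the TMM-scaled totals of the joint fit, in which 3 counts equal 0.162 to 0.345 CPM. Totals of 9955724 to 15110332 counts set the precision, and edgeR's common coefficient of biological variation came to 0.0433, 0.0665 and 0.031 in the 3 tables.

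The genes named were those the study discusses or that check the labels, the 12 most strongly induced and 12 most strongly lowered in all 3 sets, the 4 largest differences in each direction per pair of sets, the 10 largest opposite responses (each at 5 CPM or more in a group), and list members. Members, lists and rules were chosen with earlier results of these data known, and other genes were named after their values were seen. Some members counted in the lists are not reported here by name. Correlations of deviations of same-numbered libraries were 0.0189, -0.0523 and -0.00182, so no shared deviation was seen. This cannot tell whether same-numbered libraries came from the same mouse or culture. The pipeline was tested on simulated data. DESeq2 1.42.0 and the other settings are given in the closing section. Figures were drawn with matplotlib 3.10.9.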

Additional observations from a re-analysis of the deposited data

Results flagged for a closer look

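A difference between the KLA responses of 2 sets, tested in the joint fit, was called for 1875 genes between the Pgc1b flox and RGFP966 sets, 600 between the DMSO and RGFP966 sets, 1721 between the DMSO and Pgc1b flox sets and 2543 in at least 1 comparison. The cause of these differences was not tested. Date, sex and genotype cannot be told apart where the Pgc1b flox set is compared, whereas the RGFP966 and DMSO sets shared genotype and the female pattern and differed by label in date and the DMSO given.

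The largest log2 differences for Pgc1b flox minus RGFP966 were 6.66 for Wdr90, 5.19 for Kif18b (a mitotic kinesin), 4.79 for Gprc5b and 4.22 for Arnt2, and on the lower side -7.54 for Cdca7 (a MYC target), -5.31 for Sox4, -4.96 for Slc6a4 (the serotonin transporter) and -4.64 for Tnfsf4 (OX40 ligand). For DMSO minus RGFP966 they were 5.93 for Tspan32, 5.53 for Wdr90, 5.44 for Clspn (a replication checkpoint protein) and 3.16 for Clec1a, and -8.06 for Tnc, -7.91 for Bmp1, -7.75 for Aebp1 and -6.17 for Tfap4. For DMSO minus Pgc1b flox they were 6.61 for Cdca7, 5.84 for Ptgs2os2, 5.05 for Sox4 and 4.73 for Plxna3, and -7.43 for Fbn1, -7.31 for Aebp1, -5.95 for Loxl2 and -5.49 for Stk39. Except for Gprc5b, Arnt2 and Clec1a, at least 1 library of the compared groups had no count, and the size of these differences then depends on the prior count and is no bound. Bounds against the floor of 3 counts can be given where both libraries had none. Wdr90 was at least 15.7-fold, Kif18b at least 9.87-fold and Clspn at least 18-fold lower with KLA in the RGFP966 set, and Cdca7 at least 18.7-fold lower in the Pgc1b flox set. Tnfsf4 was at least 293-fold higher with KLA in the RGFP966 set and 108-fold in the DMSO set. Bmp1 was at least 154-fold higher in the RGFP966 set, and Tfap4 at least 26.2-fold lower in the DMSO set.

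Among genes called in opposite directions, the log2 differences for Pgc1b flox minus RGFP966 were -3.18 for Mki67, 2.82 for Clec7a and -2.53 for Tmpo. Those for DMSO minus Pgc1b flox were 2.77 for Myc, 2.72 for Fads2, 2.39 for Spred2 and 2.38 for Brip1.

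Over all genes in the joint fit, 21.6% had responses called different between sets. Among immune lists the called members numbered 7 of 23 cytokines, 10 of 20 chemokines, 4 of 8 chemokine receptors, 15 of 31 interferon-stimulated genes, 5 of 14 genes of interferon and its factors, 9 of 22 genes of NFκB and its feedback and 9 of 27 TLR pathway genes. Among lists of metabolism, division and presentation they numbered 6 of 12 prostaglandin genes, 1 of 9 genes of nitric oxide, arginine and itaconate, 6 of 17 glycolysis genes, 11 of 18 redox and iron genes, 9 of 22 cell cycle genes, 16 of 19 cholesterol synthesis genes, 7 of 12 LXR targets, 5 of 6 MHC class II genes and 0 of 11 MHC class I genes. In the remaining lists they numbered 8 of 11 costimulation and adhesion genes, 6 of 19 resting macrophage receptors, 2 of 23 respiratory chain genes, 1 of 5 PGC1 and ERR genes, 0 of 10 genes of the NCoR and HDAC3 complex, 5 of 24 lysosomal genes, 5 of 13 matrix proteases and 11 of 18 AP-1 and early genes. The shares of the lysosomal genes (20.8%) and of the PGC1 and ERR genes (20%) lay near that of all genes.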

How the results depend on the processing

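Under other settings (DESeq2's size factors, no filter or a mean of 5 CPM, DESeq2 1.42.0, only the compared groups, no fold threshold, a replicate block, libraries left out singly), the counts of induced and lowered genes in each set and of the genes agreed in all 3 stayed within 1.5 times of those given. Without the fold threshold the opposite genes rose to 261 and the differences to 3490 (Pgc1b flox minus RGFP966), 1319 (DMSO minus RGFP966), 3172 (DMSO minus Pgc1b flox) and 4222 (any), whereas under the other settings they stayed within 1.5 times. The replicate block gave 3390 induced and 3902 lowered genes in the RGFP966 set. It gave 2777 and 3111 in the Pgc1b flox set and 3629 and 3597 in the DMSO set. The agreed genes then numbered 2362 and 2397, the opposite genes 30 and the differences 1790, 570, 1637 and 2400. Leaving out 1 library gave 3394 to 3440 induced and 3736 to 3815 lowered genes in the RGFP966 set, 2723 to 2806 and 2899 to 3126 in the Pgc1b flox set, 3648 to 3752 and 3438 to 3527 in the DMSO set, 2306 to 2380 and 2252 to 2371 agreed genes, 29 to 39 opposite genes and 1636 to 2082, 456 to 649, 1504 to 1928 and 2352 to 2819 differences. Chosen after seeing the data, agreement between 2 sets gave 2495 induced and 2546 lowered genes without the RGFP966 set, 3028 and 3188 without the Pgc1b flox set and 2479 and 2665 without the DMSO set. The opposite genes numbered 21, 5 and 15 in the same order. Leaving out chromosomes X and Y gave 1805, 591, 1676 and 2466 differences. A response from 0 counts has no finite size, which limits what can be said of genes with few counts.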

Other observations

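Early response factors did not share a direction at 6 h. Fos, a subunit of AP-1, fell in all 3 sets and by less in the Pgc1b flox set, with log2 fold changes of -1.88, -0.81 and -1.49. Egr2, a factor of myeloid differentiation, also fell (-2.35, -1.37 and -1.32), whereas Egr1 rose (0.81, 1.29 and 0.81) and Maff, a small MAF protein, rose most in the DMSO set (3.04, 3.28 and 4.13). Called differences were found in 11 of the 18 genes of that list in the joint fit, beside 21.6% of all genes. Among matrix proteases, Mmp13, a collagenase, was induced most in the RGFP966 set (7.85, 6.00 and 6.49) and Mmp14, the membrane-bound activator of MMP2, most in the Pgc1b flox set (7.46, 8.57 and 6.91). Pfkfb3, which drives glycolytic flux, had log2 fold changes of 4.33, 2.22 and 3.47, and both Pgc1b flox vehicle libraries lay above the other 4 in 14 of 17 genes of the glycolysis list, beside 25.5% of all genes. Lipa, the lysosomal acid lipase, fell in all 3 sets (-1.94, -1.14 and -1.75), and 5 of 24 lysosomal genes had a called difference, close to the 21.6% of all genes.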
